A study of Mus musculus with 8 samples.

Results

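Heparan sulfate is a long sugar chain that cells attach to core proteins at the cell surface and in the matrix. Exostosin enzymes lengthen the chain, N-deacetylase and N-sulfotransferase enzymes (Ndst) start its sulfation, an epimerase (Glce) turns glucuronic acid into iduronic acid, and sulfotransferases then add sulfate at set positions. Hs2st1 sulfates the uronic acids, mainly iduronic acid, Hs6st enzymes sulfate the glucosamine, and Hs3st enzymes add the rarest sulfate groups. The resulting pattern sets which growth factors, chemokines and receptors the chain binds, and fibroblast growth factor signalling through its receptors needs it.

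The enzymes described here are 10 genes of this pathway: Ext1, Ndst1, Ndst2, Glce, Hs2st1, Hs6st1, Hs6st2, Hs3st1, Hs3st3a1 and Hs3st3b1. Of the 10, 8 had a probe set with that gene symbol, 1 each, among 19505 named genes, and Ndst1 and Glce were not analysed here. The set was chosen by the fall of Hs2st1 in shIRF7 against the controls on these same arrays, and the question is whether the other enzymes, taken by name, shared it. The cells were mesenchymal stromal cells from the inguinal fat pad of 12 month old male FVB mice, and all of them carried the lentiviral vector pLKO.1. It was empty on 2 arrays, held a scrambled hairpin on 2 arrays (scramble), and held a hairpin against Irf7 on 4 arrays (shIRF7), Irf7 being a transcription factor of the interferon response. The labels name 1 shIRF7 construct and do not tell whether each replicate was its own culture, animal or infection, so the p-values speak only of how far these arrays scattered, and that scatter may be technical.

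Values are log2 signals, and a difference of 1 is a doubling of signal. Probe sets that their identifiers mark as negative controls had medians of 4.18 to 4.56 on the 8 arrays and 95th percentiles of 7.93 to 8.72. A gene below that percentile is called not clearly above background here. Between 31.6% and 36.8% of named genes exceeded it on each array. Of 8 measured stromal markers 6, Pdgfrb, Eng, Cd44, Itgb1, Vcam1 and Col1a1, exceeded it on all 8 arrays. Thy1 exceeded it on only some arrays and Nt5e on none, and Pdgfra and Ly6a had no probe set with that symbol. The mean log2 level of the 8 measured markers was 12.4 to 12.7 in the controls and 11.7 to 12.3 in shIRF7. These ranges did not overlap, and what part that had in the results below was not tested. None (0) of the 6 leukocyte, 5 endothelial, 4 epithelial and 4 pericyte or smooth muscle markers exceeded it on any array, nor did 4 of 5 adipocyte markers, the exception being Fabp4. Irf7 itself was 9.55 and 9.61 with empty vector, 9.56 and 9.76 with scramble, and 4.42, 5.66, 6.47 and 6.79 in shIRF7 replicates 1 to 4. All 4 shIRF7 arrays were thus below every control for the targeted gene, although Irf7 missed the threshold over all genes (limma adjusted p = 0.0692). In shIRF7 it was clearly above background on 0 of 4 arrays.

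Hs2st1 lies on the minus strand of mouse chromosome 3 (GRCm38.p6, chr3:144429701-144570216, from the RefSeq table), and Selenof, which encodes a selenoprotein of the endoplasmic reticulum, starts on the other strand close by (chr3:144570427-144597677). The annotated starts of these genes face away from each other with 210 bases between them (chr3:144570217-144570426). This stretch, read 5′ to 3′ on the Hs2st1 strand from RefSeq, is shown because both genes were measured and only Hs2st1 was among the genes that fell. Capitals mark each CCAAT and each GGGCGG, common promoter motifs that were chosen after the sequence was seen.
Hs2st1-Selenof: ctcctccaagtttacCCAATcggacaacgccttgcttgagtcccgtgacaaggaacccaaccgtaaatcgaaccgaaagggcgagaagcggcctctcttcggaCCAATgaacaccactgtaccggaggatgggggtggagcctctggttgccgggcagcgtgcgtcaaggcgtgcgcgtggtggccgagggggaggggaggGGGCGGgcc

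The stretch had a G and C content of 63.8%, with 2 CCAAT and 1 GGGCGG, which did not overlap. In the 210 bases before the start in 32851 RefSeq promoter windows, read on both strands, 30.3% held CCAAT, 8.36% held it 2 or more times, and 31.4% held GGGCGG. The core of the interferon-stimulated response element, GAAA, 2 bases of any kind and GAAA, and the gamma-activated site, TTC, 3 bases of any kind and GAA, were also searched on both strands in the 300 bases around each start (250 before and 50 after). These motifs occurred in 3.44% and 8.30% of all windows. No window of Hs2st1, Hs6st1, Hs6st2, Hs3st1, Hs3st3a1, Hs3st3b1 or Ndst2 held either one (0 matches each), nor did those of Selenof and Irf7. A missing match says only that these letters are not in this window. Ext1 had no promoter window and was not searched.

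The Hs2st1 signal with empty vector was 10.1 and 9.89, that with scramble 9.61 and 9.77, and the 4 shIRF7 replicates gave 7.93, 8.03, 7.50 and 7.15. The groups did not overlap: the highest shIRF7 value, 8.03, was below the lowest control, 9.61. Controls averaged 9.83 ± 0.19 and shIRF7 7.65 ± 0.41 (SD, n = 4 each). On the log2 scale shIRF7 minus controls was -2.18 (SE 0.22, 95% interval -2.69 to -1.68), which is 4.54-fold. This is the difference by which Hs2st1 was chosen, so it is a description. In RNA of whole cultures, less of a transcript per cell and fewer cells that express it cannot be told apart. In that fit 6 of 19505 genes fell (0.0308%) and 0 rose, and Hs2st1 ranked 3 by p. Its adjusted p of 0.0483 was shared with Ifi27l2a, Cdsn, Adar and Bst2, just inside the threshold of 0.05, and the first gene outside it, Gm4951, stood at 0.0692. Among the other enzymes the nearest to the threshold was Ext1, at 0.707.

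The Hs2st1 difference stayed negative throughout, while its place against the threshold changed. It was -1.90 in replicate 1 alone and -1.80 in replicate 2 alone (the shIRF7 array minus the mean of both controls of that number). Same-numbered arrays deviated together between empty vector and scramble (r = 0.757 over genes) but not with shIRF7 (-0.31 to -0.161). Such values, here and below, therefore set 1 shIRF7 array against controls not shown to be matched to it. With any 1 of the 8 arrays left out the Hs2st1 difference lay between -2.31 and -2.01. Those estimates share most of their arrays, and the shIRF7 signals themselves ran from 7.15 to 8.03. The limma adjusted p was 0.0426 without shIRF7 replicate 1. It rose to 0.113 without empty vector replicate 1 and 0.0618 without empty vector replicate 2, and to 0.231 and 0.28 without scramble replicate 1 or 2. Without shIRF7 replicate 2, 3 or 4 it was 0.227, 0.251 and 0.0559. In the controls Hs2st1 stood above the 95th percentile of the negative controls on 4 of 4 arrays, and in shIRF7 on 0 of 4, where it lay between percentiles 90.04 and 94.98. A fold change near the background understates the change, so 4.54-fold may be too small. Choosing Hs2st1 by this same difference can make it too large, and which of these weighs more was not tested.

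Set against each control separately, which reuses the same shIRF7 arrays, the Hs2st1 difference was -2.04 (SE 0.27) from scramble and -2.32 (SE 0.27) from empty vector. Neither comparison called an enzyme of the pathway (0 of 8 with limma; at an unadjusted p under 0.05 only Hs2st1 in each, beside 6.14% and 5.84% of all genes). Over all genes they called 1 (0.00513%) and 0 (0%). Between the control vectors, whose values were also among those that chose it, Hs2st1 was -0.28 in scramble relative to empty vector (SE 0.31, 95% interval -0.99 to 0.43, limma adjusted p = 0.9999). That comparison called 0 genes (0%), with 376 at an unadjusted p under 0.05 (1.93%), of which 1, Hs3st3a1, is an enzyme of the pathway.

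**Figure D1:**
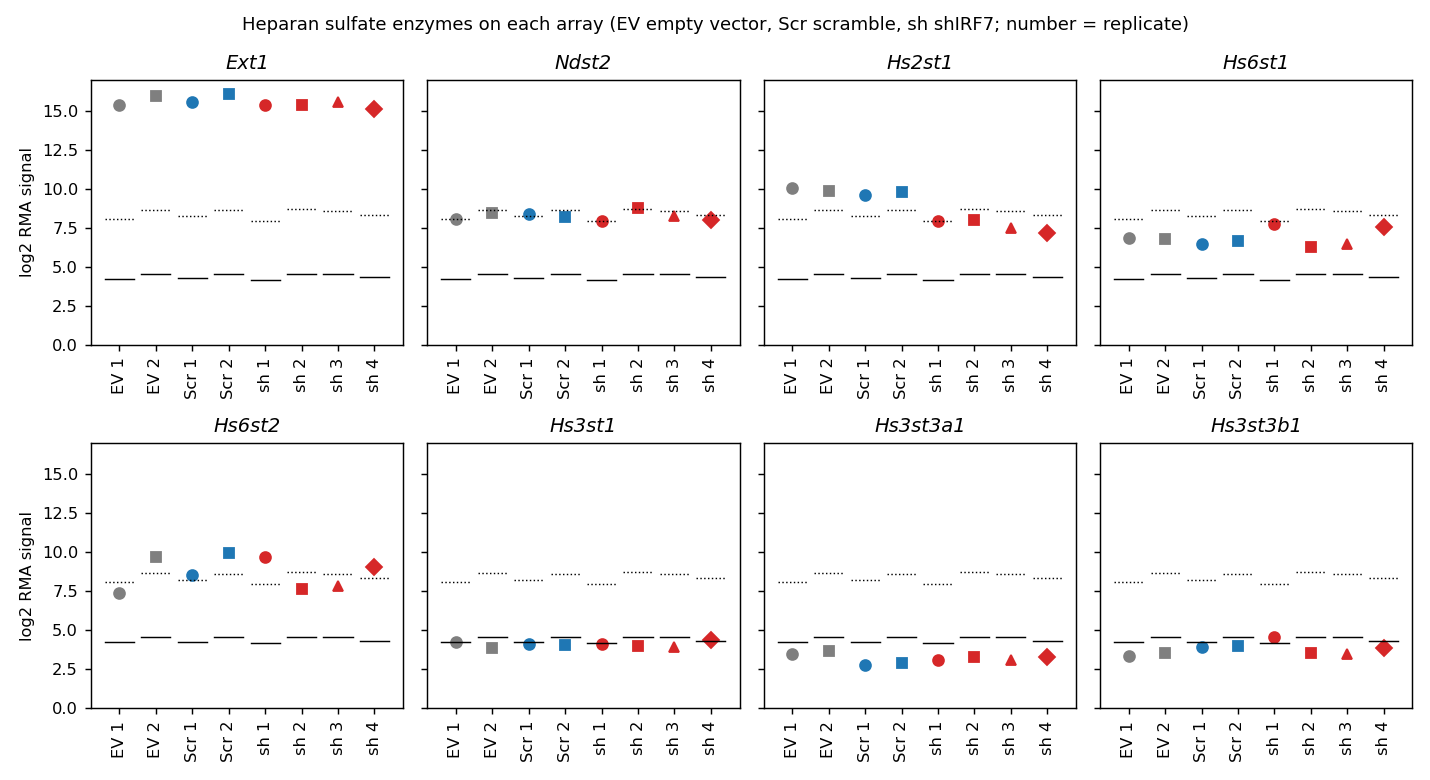
Log2 signal of the 8 measured enzymes on each array (grey empty vector, blue scramble, red shIRF7; circle, square, triangle and diamond are replicates 1 to 4), with the median (solid) and 95th percentile (dotted) of the negative controls of that array. In the Hs2st1 panel all 4 shIRF7 points, 7.15 to 8.03, sit below all 4 controls, 9.61 to 10.1; in the other 7 panels the groups overlap.

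Of the 7 other measured enzymes 0 fell and 0 rose with limma, and at an unadjusted p under 0.05 there were also 0, beside 4.1% lower and 4.01% higher over all genes. Their shIRF7 values overlapped the controls in 7 of 7, where 2.80% of all genes lay wholly below and 2.58% wholly above the controls. Their median log2 difference was -0.0025 beside 0.0017 over all genes, with 4 negative and 3 positive differences from -0.38 to 0.31. The 3 that the dim-gene filter kept, Hs6st2, Ndst2 and Ext1, were all negative, with a median of -0.31, and the 3 positive ones exceeded the negative control percentile on 0 arrays. The 95% intervals of all 7 ended above the Hs2st1 difference of -2.18, the value by which Hs2st1 was chosen. The lowest bound, -1.87 for Hs6st2, lay within the Hs2st1 interval of -2.69 to -1.68. The 7 enzymes do not all bear on the question equally. Only Ext1 was above the 95th percentile of the negative controls on all 8 arrays. Hs6st2 was above it on 5, Ndst2 on 3, and Hs6st1 and all 3 Hs3st genes on 0. For those on 0 arrays the intervals cannot tell whether a fall was shared, because the signal was not clearly above background.

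Ext1, a subunit of the polymerase that lengthens the chain, was the member best placed to show a fall. It measured 15.4 and 15.9 with empty vector, 15.6 and 16.1 with scramble, and 15.4, 15.4, 15.6 and 15.1 in shIRF7. Of the 4 shIRF7 values 2 lay below the lowest control, 15.4, and 2 within the control range. The difference was -0.38 (SE 0.20, 95% interval -0.84 to 0.09, limma adjusted p = 0.707), or 1.30-fold. It was -0.07 in replicate 1 alone and -0.66 in replicate 2 alone, and negative in 14 of 14 alternatives. In both control groups Ext1 was higher in replicate 2 than in replicate 1, by 0.55 with empty vector and 0.53 with scramble, which is more than the pooled difference. In shIRF7 replicate 2 was -0.05 from replicate 1.

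Ndst2, which replaces acetyl groups by sulfate on glucosamine and so opens the chain to later sulfation, measured 8.05 and 8.45 with empty vector, 8.41 and 8.18 with scramble, and 7.97, 8.78, 8.23 and 8.003 in shIRF7. The shIRF7 arrays fell on both sides of the controls. The difference was -0.03 (SE 0.22, 95% interval -0.54 to 0.48), with -0.26 in replicate 1 alone and 0.47 in replicate 2 alone. Its values lay between percentiles 93.7 and 95.3 of the negative controls.

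The glucosamine sulfotransferases Hs6st1 and Hs6st2 differed between arrays in a way that did not follow the groups. Hs6st2 measured 7.37 and 9.70 with empty vector, 8.51 and 9.93 with scramble, and 9.72, 7.64, 7.85 and 9.04 in shIRF7. It was high in replicate 2 of both controls and in shIRF7 replicates 1 and 4. Its pooled difference was -0.31 (SE 0.67, 95% interval -1.87 to 1.24), yet it was 1.78 in replicate 1 alone and -2.17 in replicate 2 alone. Its range over the 8 arrays, 2.56, exceeded that of 94.9% of all genes and was close to the 2.90 of Hs2st1. From replicate 1 to 2 it changed by 2.34 with empty vector, 1.41 with scramble and -2.08 in shIRF7. The pooled difference turned positive without empty vector replicate 2 (0.27) or scramble replicate 2 (0.04).

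Hs6st1 measured 6.85 and 6.81 with empty vector, 6.49 and 6.67 with scramble, and 7.74, 6.27, 6.46 and 7.58 in shIRF7. The controls lay close together, and shIRF7 replicates 1 and 4 were above all of them while replicates 2 and 3 were below all of them. These are the same shIRF7 arrays that were high and low in Hs6st2. The 95th percentile of the negative controls split them too, at 7.93 and 8.32 on replicates 1 and 4 and 8.72 and 8.60 on replicates 2 and 3. In the controls it was 8.06 and 8.25 in replicate 1 and 8.64 and 8.62 in replicate 2. There Hs6st2 was high where that percentile was higher, the opposite of shIRF7. What part this split had in either gene was not tested. The Hs6st1 difference was 0.31 (SE 0.35, 95% interval -0.52 to 1.13), with 1.07 in replicate 1 alone and -0.47 in replicate 2 alone. The SD was 0.76 in shIRF7 and 0.16 in the controls (n = 4 each).

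The Hs3st enzymes make the rare sulfate group that antithrombin and herpesvirus entry proteins recognise, and their signals were at the level of the negative controls. Hs3st1 ranged from 3.85 to 4.25 in the controls and from 3.92 to 4.34 in shIRF7. Hs3st3a1 ranged from 2.76 to 3.67 and from 3.08 to 3.30, and Hs3st3b1 from 3.31 to 3.99 and from 3.46 to 4.59. All of these lay at or below percentile 59.1 of the negative controls, so a fall could not have been detected. Their differences were 0.02 (SE 0.16), -0.0025 (SE 0.13) and 0.17 (SE 0.26). Hs3st3b1 was highest in shIRF7 replicate 1, with 0.99 in replicate 1 alone and -0.25 in replicate 2 alone. Hs3st3a1 was lower in scramble than in empty vector by -0.73 (95% interval -1.17 to -0.30, limma adjusted p = 0.9999), and its shIRF7 values lay between the 2 control groups.

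**Figure D2:**
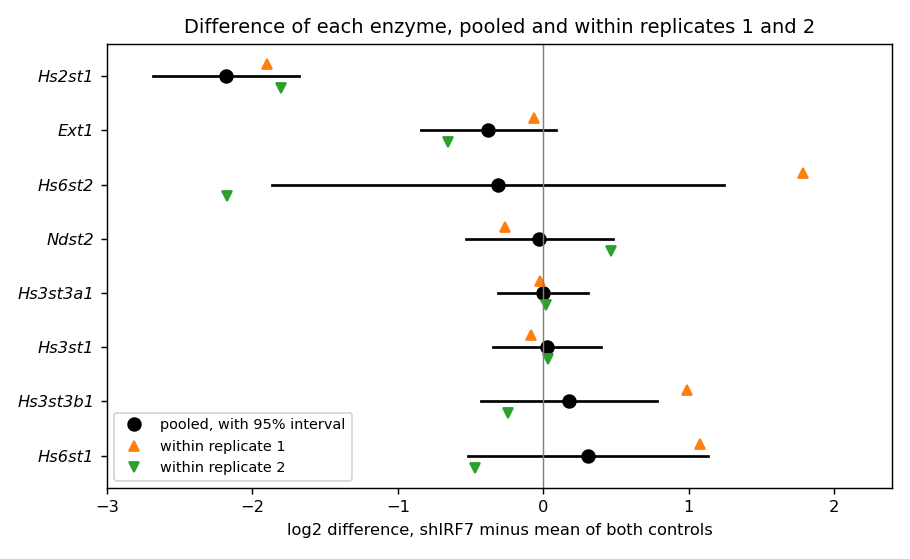
Log2 difference of shIRF7 from the mean of both controls for each measured enzyme (black point, with limma's 95% interval) and within replicate 1 (orange) and replicate 2 (green). The 3 estimates of Hs2st1 lie between -2.18 and -1.80, whereas those of Hs6st2 run from -2.17 to 1.78. The replicate numbers do not pair all groups.

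The genes on either side of Hs2st1 were then compared. Selenof, the gene on the other side of the shared stretch, measured 15.8 on all 4 control arrays and 15.8, 15.9, 15.9 and 15.7 in shIRF7 replicates 1 to 4. Its log2 difference was 0.01 (SE 0.12, 95% interval -0.28 to 0.29), with 0.02 and 0.04 within replicates 1 and 2. Lmo4, a transcriptional cofactor, was the nearest measured protein-coding gene on the other side (chr3:144188530-144205255), 224446 bases away. It ranged from 9.25 to 10.1 in the controls and from 9.64 to 9.81 in shIRF7. Its difference was -0.06 (SE 0.20, 95% interval -0.52 to 0.40). Both intervals exclude a difference as large as that of Hs2st1.

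Irf7 and Hs2st1 were both lower in every shIRF7 array than in every control. Neither was clearly above background on any shIRF7 array (0 of 4 each), Irf7 lying between percentiles 55.6 and 87.7 of the negative controls, so the order of the shIRF7 arrays in these genes is not read. The Pearson correlation of both genes over the 8 arrays was 0.86, which rests on the distance between shIRF7 and the controls.

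**Figure D3:**
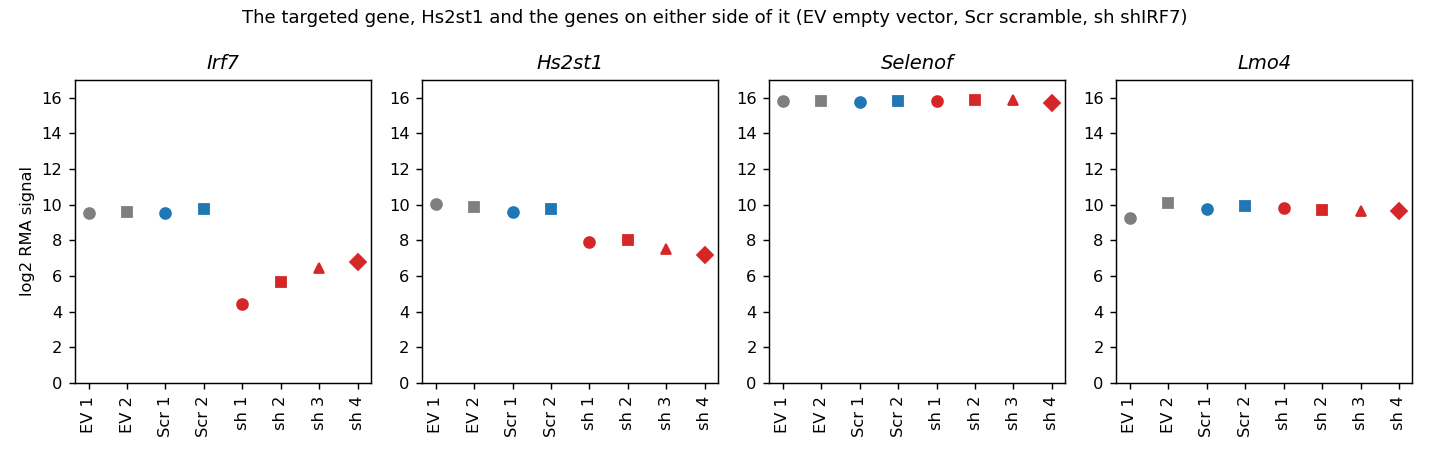
Log2 signal of Irf7, Hs2st1 and its measured neighbours Selenof and Lmo4 on each array (grey empty vector, blue scramble, red shIRF7; markers as replicates 1 to 4). Irf7 and Hs2st1 are lower in all 4 shIRF7 arrays, while the groups overlap in Selenof and Lmo4, with differences of 0.01 and -0.06.

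The 5 genes whose values over the 8 arrays were most like those of Hs2st1 were Myo5a, Jak1, Snx19, Rnf141 and Fam168b, with Pearson correlations of 0.99, 0.98, 0.98, 0.98 and 0.98. All 5 were lower in every shIRF7 array than in every control, which by itself brings such genes close together. Once the control and shIRF7 means were taken off, the correlations were 0.94, 0.70, 0.66, 0.53 and 0.76 in the same order. The 5 were picked for their likeness over these arrays, so these values are a description. They rest in part on the order of the shIRF7 arrays in Hs2st1, which is not read because its signal there was not clearly above background. Snx19 and Rnf141 were likewise clearly above background on 0 of 4 shIRF7 arrays. Rnf141, a RING finger protein, differed by -1.96 (limma adjusted p = 0.0136) and fell. Jak1, the kinase of the interferon receptors and of many cytokine receptors, differed by -1.35 (limma adjusted p = 0.0692). Myo5a, a myosin that carries vesicles along actin, differed by -0.67 (limma adjusted p = 0.222). Among the other enzymes the correlation with Hs2st1 was highest for Ext1 (0.63) and lay between -0.34 and 0.13 for the other 6.

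The rest of the pathway was read from 8 lists of 79 genes, 76 of them measured. With limma 0 of the 76 fell and 0 rose over all genes, where 0.0308% of all genes fell and 0% rose. At an unadjusted p under 0.05, 2 were lower and 4 higher, beside 4.1% lower and 4.01% higher over all genes; they were Sdc4 and Agrn, and B4galt7, Papss2, Sulf2 and Idua. In 2 genes, Sdc4 and Agrn, all shIRF7 values lay below all controls, and in 1, B4galt7, above. These 3 were picked out after their values were seen, and 2.80% and 2.58% of all genes lay on those sides. 

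Among 11 further polymerases and sulfotransferases the median difference was -0.04, with a range from -0.86 (Ndst3, above background on 0 arrays) to 0.23, and 3 were above background on at least 2 arrays. Ext2, the partner of Ext1 in the polymerase, averaged 10.04 ± 0.20 among controls and 10.3 ± 0.18 with shIRF7 (SD, n = 4 each; difference 0.23, SE 0.15). Extl3, which starts the chain on its linker, differed by -0.15 (SE 0.31). The 7 enzymes of the linker that joins the chain to its protein had a median of 0.18. Pxylp1, a phosphatase of the linker xylose, differed by 0.65 (SE 0.31), with -0.06 in replicate 1 alone and 0.93 in replicate 2 alone, and Fam20b, the kinase of the same xylose, by 0.18 (SE 0.19). B4galt7, which adds the first galactose of the linker, ranged from 6.20 to 6.87 in the controls and from 7.04 to 7.44 in shIRF7 (difference 0.75, SE 0.16, limma adjusted p = 0.227), below the 95th percentile of the negative controls on all arrays.

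All the sulfotransferases draw on the same sulfate donor, and 8 genes of its supply and of nucleotide sugars had a median of -0.01. Papss2, a synthase of that donor, averaged 10.3 ± 0.81 among controls and 11.3 ± 0.23 with shIRF7 (SD, n = 4 each; difference 0.96, SE 0.38, limma adjusted p = 0.578). Its shIRF7 values overlapped the controls because empty vector replicate 2 reached 11.04, and the difference was 1.53 in replicate 1 alone and 0.58 in replicate 2 alone. Slc26a2, a sulfate transporter, differed by 0.34 (SE 0.26).

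Enzymes that remove sulfate or break the chain down had positive medians, 0.26 over 4 sulfatases and heparanases and 0.31 over 7 lysosomal enzymes, with 0 past the threshold. Idua, which removes iduronic acid, measured 10.9 and 8.47 with empty vector, 10.6 and 8.23 with scramble, and 10.8, 10.9, 10.9 and 11.9 in shIRF7. Replicate 2 of both controls was low and replicate 1 was near shIRF7, so the difference of 1.57 (SE 0.67, limma adjusted p = 0.611) was 0.02 in replicate 1 alone and 2.52 in replicate 2 alone. Sulf2, which removes sulfate from glucosamine outside the cell, was also low in replicate 2 of both controls (10.3 and 10.6, against 12.5 and 11.8 in replicate 1). Its difference of 1.27 (SE 0.52, limma adjusted p = 0.597) was -0.32 in replicate 1 alone and 2.42 in replicate 2 alone. Sulf1, its relative, differed by 0.42 (SE 0.53), and Sgsh, a lysosomal sulfatase, by 0.78 (SE 0.42). Sgsh exceeded the background percentile on 0 of 4 control and 2 of 4 shIRF7 arrays, so it was named only through the group where it was higher. Ids, singled out because it removes in the lysosome the sulfate that Hs2st1 adds, averaged 11.5 ± 0.75 among controls and 11.7 ± 0.23 with shIRF7 (SD, n = 4 each; difference 0.22, SE 0.36), with -0.66 in replicate 1 alone and 0.90 in replicate 2 alone.

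The core proteins that carry the chains had the lowest list median, -0.23 over 14 genes, of which 0 passed. Of the 14, 10 had a negative difference, beside 9694 of all 19505 genes, and 4 of the 14 were not above background on at least 2 arrays. Sdc4, a syndecan of focal adhesions, measured 12.0 and 12.3 with empty vector, 12.5 and 12.8 with scramble, and 12.0, 10.7, 10.6 and 10.6 in shIRF7. Replicate 1 of shIRF7 stood just below the lowest control and the other 3 further below. The difference was -1.44 (SE 0.34, limma adjusted p = 0.285), with -0.26 in replicate 1 alone and -1.88 in replicate 2 alone. Agrn, the matrix proteoglycan agrin, ranged from 7.28 to 8.45 in the controls and from 6.30 to 6.61 in shIRF7 (difference -1.20, SE 0.26, limma adjusted p = 0.251). It was above the 95th percentile of the negative controls on 1 of 8 arrays. Hspg2, the basement membrane proteoglycan perlecan, varied from 10.1 to 12.9 among the controls alone and differed by -1.04 (SE 0.76).

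Chondroitin and dermatan sulfate, the sister chains built on the same linker, gave a comparison outside heparan sulfate. The 15 measured enzymes had a median of 0.10, with 0 past the threshold. Ust, which sulfates the uronic acid of these chains as Hs2st1 does that of heparan sulfate, measured 9.52 and 8.06 with empty vector, 8.64 and 7.29 with scramble, and 8.39, 9.10, 9.34 and 8.67 in shIRF7. The groups overlapped, with a difference of 0.50 (SE 0.42), -0.69 in replicate 1 alone and 1.42 in replicate 2 alone. Chst15 differed by 0.93 (SE 0.69), again with opposite signs within replicate 1 (-0.78) and replicate 2 (2.61). The 10 fibroblast growth factor ligands and receptors that depend on heparan sulfate had a median of 0.02. Fgfrl1, a receptor without a kinase domain, differed by 0.36 (SE 0.31), and Fgf10, a ligand of adipose and epithelial development, by -0.23 (SE 0.40).

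**Figure D4:**
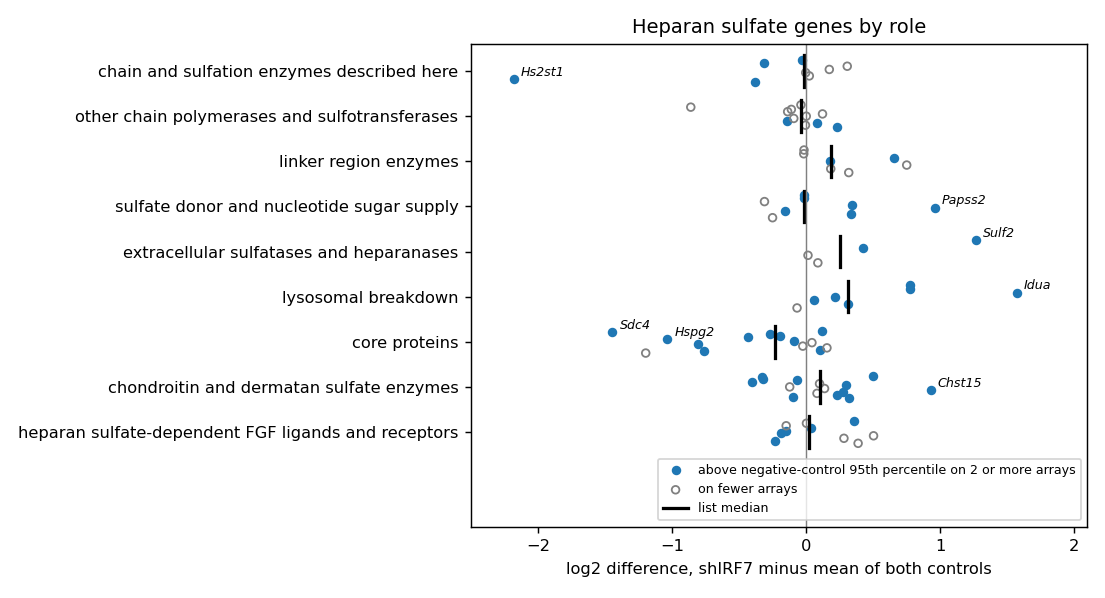
Log2 difference of shIRF7 from the mean of both controls for each measured gene of the pathway, 1 row per list, with filled points for genes above the 95th percentile of the negative controls on at least 2 arrays, open points for the others and a bar at the list median. Hs2st1, at -2.18, was chosen for its fall on these arrays, so its place apart from the other genes is a description. The 76 genes of the other 8 lists run from -1.44 (Sdc4) to 1.57 (Idua).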

How the data were processed

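The series matrix as deposited gives a log2 signal for each probe set on each array. According to the submitters' processing notes the authors computed it by RMA with Affymetrix Expression Console 1.4.1.46, which corrects background, normalizes across arrays and combines a set's probes. That the scale is log2 was read from the values, which ran from 1.66 to 18.9. The array's genome build was not given in these sources; coordinates are those of RefSeq on GRCm38.p6. Of 28846 probe sets 19572 had 1 gene symbol, 0 several and 9274 none. All 19572 gene identifiers matched the RefSeq table, and for 55 genes with several probe sets the brightest was kept. Precision is limited by the number of arrays.

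All genes were fitted by lmFit and eBayes of limma 3.58.1, run under R 4.3.3 (a mean per group over all 8 arrays, 5 residual degrees of freedom). The contrasts were shIRF7 against both controls (empty vector and scramble weighted equally), against each control, and scramble against empty vector. P-values were adjusted by Benjamini-Hochberg over 19505 genes with a threshold of 0.05, and SE and intervals are limma's moderated ones. The fit was tested on simulated data. Genes named are the enzymes, Irf7, the genes beside Hs2st1, the 5 most correlated with it (predicted genes, Riken clones, small RNAs and olfactory or vomeronasal receptors left out), and per list those past the threshold or else the 2 largest differences among genes above background on at least 2 arrays. Agrn, B4galt7 and Ids were added after values were seen. The members and lists were chosen with earlier results of these data known. Alternatives were trend and robust eBayes, cyclic loess, dropping dim genes, averaging a gene's probe sets, pooling the controls, blocking on the replicate number, and leaving out each array.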

Additional observations from a re-analysis of the deposited data

Results flagged for a closer look

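Among the genes named, 3 had 1 shIRF7 array far from the other 3 relative to their whole range, where chance marks about 1 in 20 such groups. The rule was applied to 35 genes. Sdc4 stood at 12.0 in shIRF7 replicate 1, with the next highest at 10.7. Idua stood at 11.9 in shIRF7 replicate 4, with the next highest at 10.9, and Sulf1 at 13.4 in the same array, with the next highest at 12.1. None of the 8 measured enzymes of the main list was marked in this way.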

How the results depend on the processing

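The fall of Hs2st1 kept its direction in 14 of 14 alternatives (-2.31 to -1.85) and passed the threshold in 5, which is no independent support since Hs2st1 was chosen for it. In 1 of the 5, the dim-gene filter, it was kept only through the controls, where it was high. The call was lost with trend and robust eBayes (adjusted p = 0.0538; members called 0, genes called 3). Genes called in shIRF7 against both controls were 28 with the controls as 1 group, and 0 to 28 when leaving out 1 array in turn, with 0 to 1 members called. In shIRF7 against scramble 0 genes were called with the dim-gene filter, with trend and robust eBayes or with the replicate block, and 0 to 8 when leaving out 1 array. In shIRF7 against empty vector the leave-one-out range was 0 to 3. Where an array left out leaves a control group with 1 array, that array is assumed to vary like the others. Of the other 7 enzymes none (0) passed in any alternative, and the cause of the changes was not tested.

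The replicate numbers were tried as a block, with 2 residual degrees of freedom. It called 0 genes with limma in shIRF7 against both controls (691 at an unadjusted p under 0.05) and 0 members, with Hs2st1 at -1.85 (adjusted p = 0.315). Same-numbered arrays deviated together between empty vector and scramble (r = 0.757 over genes) but not between either control and shIRF7 (-0.31 to -0.161), so the numbers do not pair all groups.

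Small differences that turned sign were these. Hs3st3a1 was 0.0065 with cyclic loess, and Hs3st1 -0.028 and Ndst2 0.10 with the replicate block. When leaving out 1 array, Hs6st2 ran from -0.90 to 0.27, Hs3st1 from -0.075 to 0.12, Hs3st3a1 from -0.057 to 0.052, Hs3st3b1 from -0.072 to 0.30 and Ndst2 from -0.21 to 0.071.

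The dim-gene filter kept 7288 genes, among them Hs2st1, Hs6st2, Ndst2 and Ext1. Low signal limits Hs6st1 and the Hs3st genes, whose probe sets did not exceed the 95th percentile of the negative controls on any array.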
